A study of Taeniopygia guttata with 5 samples.

Results

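*CD74*, *CD200*, *IL16*, *IFRD1* and *FAM19A1* carry names from the immune system and were measured here in HVC, a song nucleus in the forebrain of the zebra finch, and in whole brain (WB). The 5 genes were picked by name from the deposited RNA-Seq tables, where they make up 5 of 4675 listed transcripts. They had drawn attention because their read counts in HVC differed between juveniles and adults, so the HVC age difference of these genes is given as a description without a test. All birds were males and taken in the morning after 1 h without singing or hearing song. The juvenile HVC group (45 d, reared with the parents, 2 libraries labelled R92L1 and R92L2) was set against the adult HVC group (100 d, housed in group cages after separation from the parents, 1 library), the juvenile WB group (45 d, 1 library) and the adult WB group (100 d, 1 library). Each HVC library held RNA pooled from 4 birds and each WB library RNA from 2 birds. Nothing states that the birds in R92L1 and R92L2 were different, so the spread between them, which every p-value rests on, may be technical. HVC was sequenced under the run label R92 and WB under R81, so tissue and run cannot be told apart.

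Microglia, the resident macrophages of the brain, read signals that neurons display or release, and they prune synapses and clear dying cells while circuits form. CD200 is a membrane glycoprotein of neurons that holds microglia in a resting state through its receptor, and CD74 is the invariant chain that guides major histocompatibility complex (MHC) class II molecules through the cell and also serves as a receptor for the cytokine MIF. IL16 is made as a precursor that is cut to release a chemoattractant for CD4-bearing cells, and in rodents a longer neuronal form is a scaffold for ion channels. FAM19A1 (also called TAFA1) is a small secreted protein of the brain related to chemokines. IFRD1 is a transcriptional co-regulator that works with histone deacetylases and is known from muscle and neutrophil differentiation in mammals. These roles come from mammals. In bulk tissue, fewer cells of a type and less RNA per cell cannot be told apart.

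In the zebra finch assembly taeGut1, *CD74* (ENSTGUT00000000915) lies on the plus strand of chromosome 13 from 6774624 to 6780143. *CD200* (ENSTGUT00000014153) lies on the minus strand of chromosome 1 from 114120531 to 114123644. *IL16* (ENSTGUT00000008248) lies on the minus strand of chromosome 10 from 12005530 to 12009855. *IFRD1* (ENSTGUT00000005669) lies on the minus strand of chromosome 1A from 26339500 to 26347920. *FAM19A1* (ENSTGUT00000010082) lies on the plus strand of chromosome 12 from 16075500 to 16294190. Each gene was represented by 1 listed transcript, and the 5 transcripts sit on 5 different chromosomes.

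The study designed 1 primer pair per gene for RT-qPCR. The pairs are shown, 5′ to 3′, because they are the sequences by which these same transcripts can be measured again.
CD74 forward: ccgagcactctgcaataa
CD74 reverse: caacctccaacaacaccc
CD200 forward: aaagtgaggatgggtgatagtg
CD200 reverse: catgtgattcctctgagtcctt
IL16 forward: gccgttaattcccacctt
IL16 reverse: atgacacctggctgctga
IFRD1 forward: tggctggctcttcctat
IFRD1 reverse: ccaaccacccacaactc
FAM19A1 forward: aggaggaacgtgtgaagttatag
FAM19A1 reverse: ccaggtagacaggagcattt

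A deposited table lists, for 1 comparison, the 1800 transcripts with the smallest p-values and their raw read counts. A gene therefore has counts only in the libraries of the tables that list it, and 24 of the 25 gene and library combinations could be read. The listed counts summed to between 495316 and 1014565 reads per library, which is not the sequencing depth. Levels below are reads divided by the relative size of the library, with the adult HVC library set to 1 (R92L1 0.911, R92L2 1.1, juvenile WB 1.82, adult WB 1.51). A WB library has more reads than an HVC library at an equal level, which matters where reads alone are given. Levels are compared within a gene and not between genes, since transcript lengths were not used. As a check of the tissue labels, the HVC markers *ALDH1A2*, *CRHBP* and *NTS* were higher in HVC than in WB at both ages, 3 of 3 past the threshold each time. When the reads of R92L1 and R92L2 were added together, 2391 transcripts reached a sum of 20 or more. For these transcripts the levels in R92L1 and R92L2 were a median of 1.25-fold apart.

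*CD200*, the neuronal ligand, had few reads in juvenile tissue and the largest ratio between adult and juvenile HVC among the 5 genes. It had 6 reads in R92L1, 7 in R92L2, 43 in adult HVC, 5 in juvenile WB and 20 in adult WB. These are levels of 6.59, 6.37, 43, 2.75 and 13.2. The juvenile HVC pair differed by 1.03-fold, and the adult library was the higher of the ages in both tissues. In HVC the adult level was 6.65-fold the juvenile level (95% counting interval 3.51 to 13.5), a log2 difference of 2.71 (SE 0.53). In WB it was 4.82-fold (1.75 to 16.4).

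*IL16*, the cytokine precursor, was high in adult HVC and did not follow the same order in WB. It had 15 reads in each juvenile HVC library, 68 in adult HVC, 65 in juvenile WB and 39 in adult WB. These are levels of 16.5, 13.6, 68, 35.8 and 25.8. Juvenile HVC held the lowest levels and adult HVC the highest, with both WB libraries between them. The adult HVC level was 4.56-fold the juvenile level (95% counting interval 2.92 to 7.25), a log2 difference of 2.17 (SE 0.45). In WB the adult level was 0.722 of the juvenile level (0.473 to 1.09), an interval that includes no difference.

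*CD74*, the MHC class II chaperone, was the 1 gene of the 5 on which the juvenile HVC pair did not agree. It had 77 reads in R92L1, 29 in R92L2, 17 in adult HVC, 105 in juvenile WB and 42 in adult WB. These are levels of 84.5, 26.4, 17, 57.8 and 27.8. The pair was 3.20-fold apart, and 39 of the 2391 transcripts (1.63%) were at least as far apart. The level in R92L2 lay between those of adult HVC and adult WB, while R92L1 lay above every other library. The adult HVC level was 0.322 of the juvenile level pooled over R92L1 and R92L2 (95% counting interval 0.181 to 0.541), a log2 difference of -1.68 (SE 0.75). Without R92L1 that difference was -0.63, and without R92L2 it was -2.30.

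*FAM19A1*, the chemokine-related gene, was lower in the adult library of both tissues. It had 440 reads in R92L1, 618 in R92L2, 290 in adult HVC, 744 in juvenile WB and 352 in adult WB. These are levels of 483, 562, 290, 409 and 233. The juvenile HVC pair was the highest and adult WB the lowest, and the pair differed by 1.16-fold. The adult level was 0.551 of the juvenile level in HVC (95% counting interval 0.482 to 0.628), a log2 difference of -0.85 (SE 0.27), and 0.570 in WB (0.50 to 0.648).

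*IFRD1*, the transcriptional co-regulator, was highest in juvenile HVC. It had 314 reads in R92L1, 438 in R92L2, 172 in adult HVC and 344 in juvenile WB. These are levels of 345, 399, 172 and 189. Its count in adult WB was not analysed here. The adult HVC level was 0.460 of the juvenile level (95% counting interval 0.387 to 0.543), a log2 difference of -1.11 (SE 0.28), and it lay close to the level in juvenile WB. Over all 2150 transcripts fitted for the ages in HVC, the edgeR quasi-likelihood test called 0 (0%) at an adjusted p under 0.1, and 444 had an unadjusted p under 0.05. DESeq2 called 2 and limma-voom 0. The fit had 1 residual degree of freedom, so 0 calls does not show that no transcript differed between the ages.

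**Figure D1:**
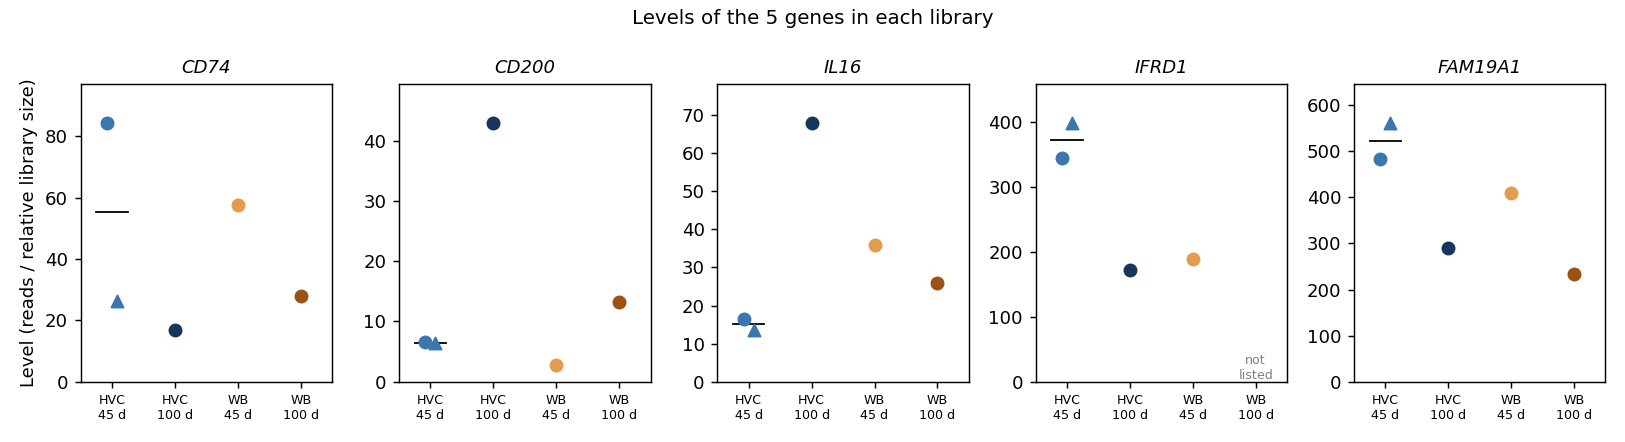
Level of each gene (reads divided by relative library size, y axis from 0 in each panel) in the 5 libraries, grouped by tissue and age on the x axis. Each point is 1 library, the circle and the triangle at 45 d are R92L1 and R92L2, and the line is their mean. *CD74* is the panel where the pair stands 3.20-fold apart, and *IL16* the panel where adult HVC is highest while adult WB is not above juvenile WB.

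The WB libraries had no part in choosing the genes, so the age difference in WB was tested. The test is not fully independent of the choice, since the spread was taken from the juvenile HVC pair. *CD74*, *CD200* and *FAM19A1* had a juvenile WB count only because the comparison of the ages in WB listed them for small p-values. *IL16* had its WB counts only from the tissue comparisons, which listed it for small p-values. None of the 4 genes with counts in both WB libraries passed an adjusted p under 0.1 in edgeR, where 2 of 1318 transcripts did (0.152%). Only *FAM19A1* had an unadjusted p under 0.05. Over all transcripts, at an unadjusted p under 0.05 there were 90 such transcripts, and neither DESeq2 nor limma-voom called any. *FAM19A1* had a log2 difference of -0.81 between adult and juvenile WB (SE 0.34, edgeR adjusted p = 1). *CD200* had a log2 difference of 2.23 (SE 1.09, edgeR adjusted p = 1) on 5 and 20 reads. *CD74* had a log2 difference of -1.05 (SE 0.63, edgeR adjusted p = 1). *IL16* had a log2 difference of -0.47 (SE 0.65, edgeR adjusted p = 1). The direction of each was the same under all 7 alternative scalings, tests and filters. Only the scalings could have changed it, since the other alternatives kept the library sizes and each age is a single library.

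Set side by side, the age differences of *FAM19A1* in HVC and WB were nearly equal, and those of *IL16* were not. The difference between the HVC and the WB value, fitted over the 5 libraries and given without a test because it contains the values that chose the genes, was -0.04 for *FAM19A1* (log2, SE 0.44). For *CD200* it was 0.49 (SE 1.32) and for *CD74* -0.63 (SE 0.87), both smaller than their standard errors. For *IL16* it was 2.64 (SE 0.83).

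**Figure D2:**
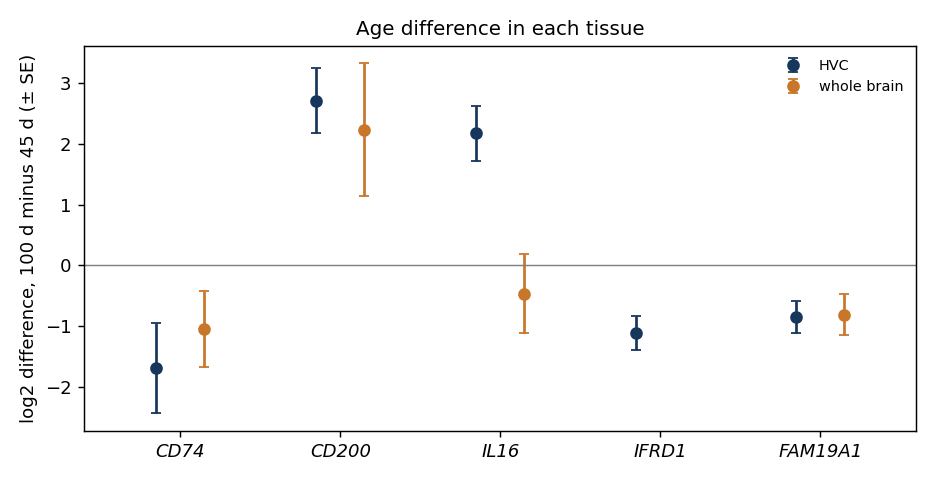
Log2 difference between 100 d and 45 d in HVC and in WB for each gene, with bars of 1 SE from the edgeR fit. *CD200* lies above 0 and *CD74* and *FAM19A1* below 0 in both tissues, *IL16* lies at 2.17 in HVC and -0.47 in WB, and *IFRD1* has a value in HVC only.

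HVC was then compared with WB at each age, to show where in this pair of tissues the genes had more reads. These comparisons share the HVC libraries that chose the genes, so they are not independent of the choice. At 45 d, *IFRD1* was the only gene of the 5 to pass, with a juvenile HVC level 1.98-fold that of juvenile WB and a log2 difference of 0.97 (SE 0.31, edgeR adjusted p = 0.0850). *IFRD1* had a juvenile WB count only because this same comparison listed it for a small p-value, so its call is not independent evidence. Over all transcripts, 688 of 1928 passed (35.7%), 268 of them higher in HVC (13.9%) and 420 lower (21.8%). With only 4 genes fitted, 1 call cannot be told apart from these shares. These shares are over listed transcripts, which were selected for small p-values. The call for *IFRD1* held under 2 of 7 alternatives, and its adjusted p ranged from 0.0058 to 0.658. Its direction was the same in all of them. *IL16* had a log2 difference of -1.25 at 45 d (SE 0.55, edgeR adjusted p = 0.288), with both juvenile HVC libraries below juvenile WB.

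*FAM19A1* had a log2 difference of 0.35 at 45 d (SE 0.30, edgeR adjusted p = 1). For *CD74* it was -0.07 (SE 0.50, edgeR adjusted p = 1), with juvenile WB between R92L1 and R92L2. This sign was not stable: it was 0.26 with library size scaling, 0.23 with trimmed mean of M values (TMM) scaling and 0.48 with relative log expression scaling, and -1.13 without R92L1 against 0.55 without R92L2. *CD200* fell below the filter on low counts at 45 d. Without the filter its log2 difference was 1.21 (SE 1.22, edgeR) and the ratio of the levels 2.35 (95% counting interval 0.787 to 8.42), so a difference was not detectable at this depth.

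At 100 d, 0 of the 4 genes fitted passed in edgeR, where 337 of 1361 transcripts did (24.8%), 149 higher (10.9%) and 188 lower (13.8%) in HVC. DESeq2 and limma-voom also called 0 of them. *CD200* had a level in adult HVC 3.25-fold that of adult WB (95% counting interval 1.87 to 5.82), a log2 difference of 1.69 (SE 0.76, edgeR adjusted p = 0.408). *IL16* had a level 2.63-fold that of adult WB (1.75 to 4.01), a log2 difference of 1.39 (SE 0.64, edgeR adjusted p = 0.439). *IL16* thus lay below WB in juvenile HVC and above it in adult HVC, but neither difference passed. Its WB counts were at hand only because these 2 tissue comparisons listed it for small p-values, so both differences were selected for. *CD74* had a log2 difference of -0.71 (SE 0.67, edgeR adjusted p = 1) and *FAM19A1* of 0.31 (SE 0.36, edgeR adjusted p = 1).

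The scaling sets where 0 lies in the tissue comparisons. The median log2 difference was -0.69 over the 1928 transcripts fitted at 45 d and -0.42 over the 1361 fitted at 100 d. These are listed transcripts, selected for small p-values, so the medians are not those of all expressed genes. Of the calls, 38.95% and 44.2% were higher in HVC. Library size, TMM and relative log expression scaling over the listed transcripts moved the median at 45 d up by 0.43, 0.37 and 0.65, with 127 higher and 55 lower calls, 159 and 73, and 593 and 110. At 100 d they moved it up by 0.58, 0.37 and 0.41, with 176 and 23, 59 and 16, and 141 and 30. Sizes taken across tables gave 85 higher and 192 lower calls at 45 d, and 114 and 258 at 100 d with a shift of -0.12. Under every one of these scalings *IL16* stayed below WB at 45 d (log2 difference -1.31 to -0.70) and above it at 100 d (1.27 to 1.91).

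**Figure D3:**
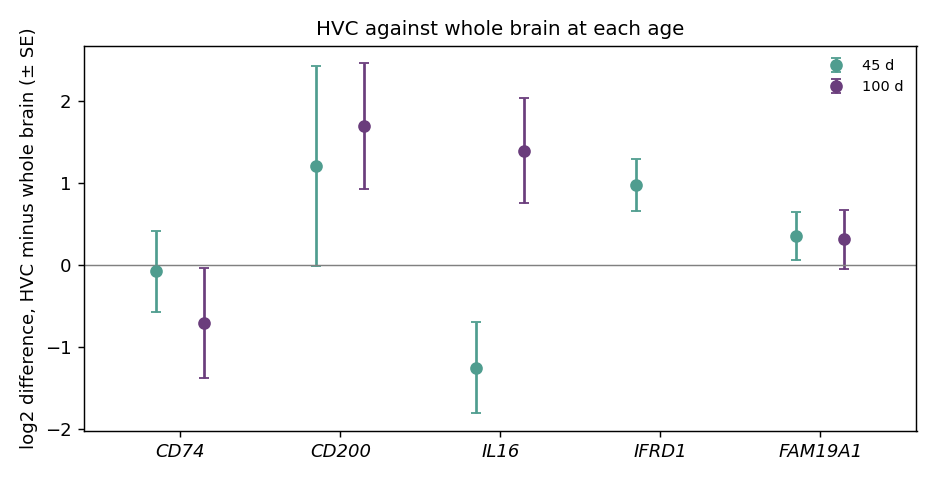
Log2 difference between HVC and WB at 45 d and at 100 d for each gene, with bars of 1 SE from the edgeR fit (*CD200* at 45 d from the fit without the filter on low counts). *IL16* lies at -1.25 at 45 d and 1.39 at 100 d, *FAM19A1* lies at 0.35 and 0.31, and *IFRD1* has a value at 45 d only.

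Ligands, receptors and other partners of the 5 genes were taken from 7 lists with 133 genes, of which 33 transcripts were listed in any table. Of those fitted, 0 of 15 passed for the ages in WB and 0 of 13 for the ages in HVC. At 45 d, 1 of 16 was higher and 3 were lower in HVC than in WB, and at 100 d 1 of 10 was higher and 1 lower, both near or below the background shares. The median log2 difference was 0.06 at 45 d against -0.69 over all transcripts fitted, and -0.34 at 100 d against -0.42. For the ages it was 0.61 in HVC against 0.03, and 0.15 in WB against -0.03.

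Among genes close to *CD74*, 3 of 21 listed genes had counts and none passed. *MIF*, its ligand, had 26, 35 and 17 reads in R92L1, R92L2 and adult HVC. *B2M*, the light chain of MHC class I, had 23 and 32 reads in juvenile HVC, 15 in juvenile WB and 28 in adult WB, with a log2 difference between HVC and WB at 45 d of 1.71 (SE 0.65, edgeR adjusted p = 0.164). Its juvenile pair was close together, unlike that of *CD74*.

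Among neuronal ligands that act on microglia and their receptors, 4 of 21 genes had counts and none passed. *CD47*, which displays a signal against phagocytosis, had 73 and 73 reads in juvenile HVC, 54 in adult HVC, 268 in juvenile WB and 182 in adult WB. Its log2 difference between HVC and WB was -1.01 at 45 d (SE 0.34, edgeR adjusted p = 0.103) and -1.16 at 100 d (edgeR adjusted p = 0.309). The values of *CD200* were positive, but at 45 d a difference was not detectable at this depth and at 100 d it did not pass. *TGFB3*, a growth factor of the TGF-beta family, had 22 and 34 reads in juvenile HVC and 23 in juvenile WB. These are levels of 24.1, 30.9 and 12.7. *CX3CR1*, the microglial receptor of a neuronal chemokine, had 1, 2 and 7 reads in R92L1, R92L2 and adult HVC and was too low to fit. It is named outside the rule for named genes, after its values were seen. The receptor of CD200 was not analysed here.

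Among partners of *IL16*, 4 transcripts were listed. *KCND2*, an A-type potassium channel gene, had 14 and 19 reads in juvenile HVC, 25 in adult HVC, 103 in juvenile WB and 92 in adult WB. It was lower in HVC than in WB at 45 d, by a log2 difference of -1.79 (SE 0.51, edgeR adjusted p = 0.0435), and its log2 difference at 100 d was -1.28 (edgeR adjusted p = 0.621). The call at 45 d was lost under 5 of 7 alternatives. *CD9*, a tetraspanin gene, had 36, 40 and 59 reads in R92L1, R92L2 and adult HVC. The transcript of the calcium channel gene *CACNA1C* with the most reads had 1046 in adult HVC and 967 in adult WB. These are levels of 1046 and 640.

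Among chemokines, their receptors and FAM19A partners, 5 transcripts were listed. *CXCR7*, a scavenger receptor of the chemokine CXCL12, had 160 and 181 reads in juvenile HVC, 211 in adult HVC, 91 in juvenile WB and 84 in adult WB. It was higher in HVC than in WB by a log2 difference of 1.76 at 45 d (SE 0.36, edgeR adjusted p = 0.00414) and 1.92 at 100 d (SE 0.43, edgeR adjusted p = 0.00118), and DESeq2 lost the call at 100 d. *NRXN3-2*, a neurexin gene whose mammalian proteins bind FAM19A proteins, had 2 and 3 reads in juvenile HVC, 5 in adult HVC, 62 in juvenile WB and 42 in adult WB. It was lower in HVC at 45 d by a log2 difference of -3.73 (SE 0.73, edgeR adjusted p = 0.00276), a call that DESeq2 lost, and it may share reads with its paralog. *CXCL14*, a chemokine gene, had 354 and 171 reads in juvenile HVC, 849 in juvenile WB and 350 in adult WB, so its pair also stood apart with R92L1 the higher. *GPR1*, a receptor gene, had 19 and 3 reads in juvenile and adult WB.

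Among partners of *IFRD1*, 3 of 13 genes had counts. The histone deacetylase gene *HDAC4* had 99, 88 and 149 reads in R92L1, R92L2 and adult HVC, and the transcription factor gene *MEF2A* had 3082 and 1596 reads in juvenile and adult WB. Among cytokine genes and receptors, 8 transcripts were listed for 29 names and none passed. *SOCS6*, a signalling suppressor gene, had 86 and 100 reads in juvenile HVC and 280 in juvenile WB.

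Among complement genes, 6 of 21 had counts. *C7*, a component of the membrane attack complex, had 31 and 87 reads in juvenile HVC, 44 in adult HVC, 359 in juvenile WB and 241 in adult WB. It was lower in HVC by a log2 difference of -1.79 at 45 d (SE 0.37, edgeR adjusted p = 0.00515) and -1.86 at 100 d (SE 0.49, edgeR adjusted p = 0.0125). These calls were lost under 3 and 5 of 7 alternatives, and the difference at 45 d was -1.32 without R92L1 and -2.53 without R92L2. *CD59*, which blocks that complex, had 271 and 464 reads in juvenile HVC, 635 in adult HVC, 798 in juvenile WB and 967 in adult WB and did not pass. These are levels of 297, 422, 635, 439 and 640. *CFI*, a complement protease gene, had 24, 67, 25, 128 and 44 reads in the same order. Its juvenile HVC pair was apart in the opposite direction to that of *CD74*.

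Markers of cell types that could carry these genes were read in the same libraries. Of 30 microglia and macrophage markers, 8 were listed, and the other 22 were not analysed here, including *CSF1R*, *P2RY12*, *AIF1*, *C1QA* and *TYROBP*. The summed level of *CX3CR1*, *DOCK2*, *PLEK* and *SPI1* was 67.0 in R92L1, 74.6 in R92L2 and 35 in adult HVC. The sum was lower in adult than in juvenile HVC and did not differ between R92L1 and R92L2 the way *CD74* did. Its members went opposite ways within the pair, with 26 and 57 reads for *DOCK2* and 30 and 18 for *SPI1*. They also did so between the ages, since *CX3CR1* had 1 and 2 reads in juvenile HVC and 7 in adult HVC. *PLEK* was at 0 in adult HVC after 4 and 5 reads in juveniles. *MERTK* had 51 and 37 reads in R92L1 and R92L2, the higher in R92L1 as for *CD74*. It was not in the sum because its count in adult HVC was not analysed here. The summed level of *DOCK8*, *GPR34*, *LY86* and *SPI1* was 88.6 in juvenile WB and 112 in adult WB, while *CD74* had levels of 57.8 and 27.8. Its members went opposite ways, since *GPR34* and *DOCK8* had higher levels in adult WB (73.5 against 52.3 and 33.8 against 20.9) and *LY86* and *SPI1* had lower ones, as *CD74* did (0.662 against 6.60 and 3.97 against 8.80). No microglia marker passed in any comparison. Between HVC and WB at 45 d, all 3 markers fitted had positive log2 differences (*DOCK2* 1.24, *SPI1* 1.46, *MERTK* 0.98). The median over all transcripts fitted was -0.69. *DOCK2* and *MERTK* had a juvenile WB count only because this comparison listed them for small p-values. *SPI1*, the 1 marker fitted at 100 d, was at 1.68. The part of microglia in the values of the 5 genes was not tested.

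Summed levels of other cell type markers also differed between the HVC libraries. The summed level of the endothelial markers *PECAM1* and *VWF* was 364, 399 and 220 in R92L1, R92L2 and adult HVC. That of 5 astrocyte markers was 15585, 22282 and 10724, mostly from *SLC1A2* (9846, 14200 and 6820). That of the neuronal markers *GAD1-1*, *GAD2* and *NEFL* was 4072, 3970 and 6108. It was highest in the adult library through *GAD2* (levels 2461, 2214 and 4186) and *GAD1-1*, while *NEFL* did not follow (614, 960 and 673). The myelin gene *MBP* had 890, 1337 and 1014 reads in these HVC libraries, 4116 in juvenile WB and 4548 in adult WB. None of these markers passed for the ages in either tissue. Between the tissues at 45 d, *PECAM1* was higher in HVC by a log2 difference of 1.34 (edgeR adjusted p = 0.0452), as were *NEFL*, a neurofilament gene (1.46, edgeR adjusted p = 0.0102), and *SOX9*, an astrocyte transcription factor gene (3.05, edgeR adjusted p = 0.0942). *MBP* and *CNP*, also a myelin gene, were lower in HVC at 45 d, by -1.05 and -1.16 (edgeR adjusted p = 0.0427 and 0.0400), and *MBP* also at 100 d, by -1.57, a call lost under 3 of 7 alternatives. Each of these 5 calls at 45 d was lost under 2 to 6 of 7 alternatives. Neuronal markers did not share a direction: *GAD2* was at -0.76 at 45 d and did not pass, and *NEFL* was at 0.87 at 100 d. *ELAVL4*, also a neuronal marker, had levels of 882 in adult HVC and 1437 in adult WB. The *SOX9* value rested on 13 and 16 reads in juvenile HVC and 3 in juvenile WB. *AQP4*, an astrocyte marker with more reads, had 596 and 912 in juvenile HVC, 524 in adult HVC, 897 in juvenile WB and 1016 in adult WB. Between the tissues it was at 0.59 at 45 d and -0.36 at 100 d and did not pass. Of 13 T and B lymphocyte markers, only *BLNK* and *PAX5* were listed, in WB alone, and of 9 red blood cell markers none was listed. The paper states that the HVC samples may have included parts of the adjoining ventricular zone. The part of these cells, or of that zone, in the results was not tested.

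For each gene, the 3 named transcripts whose levels followed it most closely were found by the Euclidean distance between log2 levels centred on the gene's own mean, among transcripts with at least 20 reads on average. For *CD74* these were *TMSB10*, *ACOT7* and *TGM4* over 5 libraries and 869 candidates, at distances of 0.44, 0.92 and 0.92 against a median of 2.31. *TMSB10*, a small actin-binding protein gene, had 45 and 13 reads in R92L1 and R92L2, 11 in adult HVC, 69 in juvenile WB and 26 in adult WB. It thus shared the gap within the juvenile pair. For *IL16* they were *RASGRP1*, *PDE10A* and *PCDH21*, at 0.75, 0.81 and 0.81 against a median of 2.34. *RASGRP1*, an activator of Ras signalling, had 64 and 114 reads in juvenile HVC, 385 in adult HVC, 271 in juvenile WB and 254 in adult WB.

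For *CD200* the nearest were *TCTEX1D1*, *PPL* and *TPST1*, at 1.16, 1.47 and 1.63 against a median of 3.33, with smaller swings between libraries than *CD200* itself. For *FAM19A1* they were *HIBCH*, *HSD17B12* and *DNAH3*, at 0.18, 0.19 and 0.23 against 1.87. For *IFRD1* they were *KIF6*, *MRPS31* and *NAV1*, at 0.14, 0.14 and 0.16 against 1.62, over 4 libraries and 1029 candidates. *CD74*, *IL16* and *FAM19A1* were not among the 3 nearest of another of the 5 genes. *CD200* could not be, since its mean reads lay below the minimum set for candidates. *IFRD1* could not be either, since the searches for the other genes needed a count in adult WB, which was not analysed for *IFRD1*. These distances describe 4 or 5 libraries and carry no test.

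**Figure D4:**
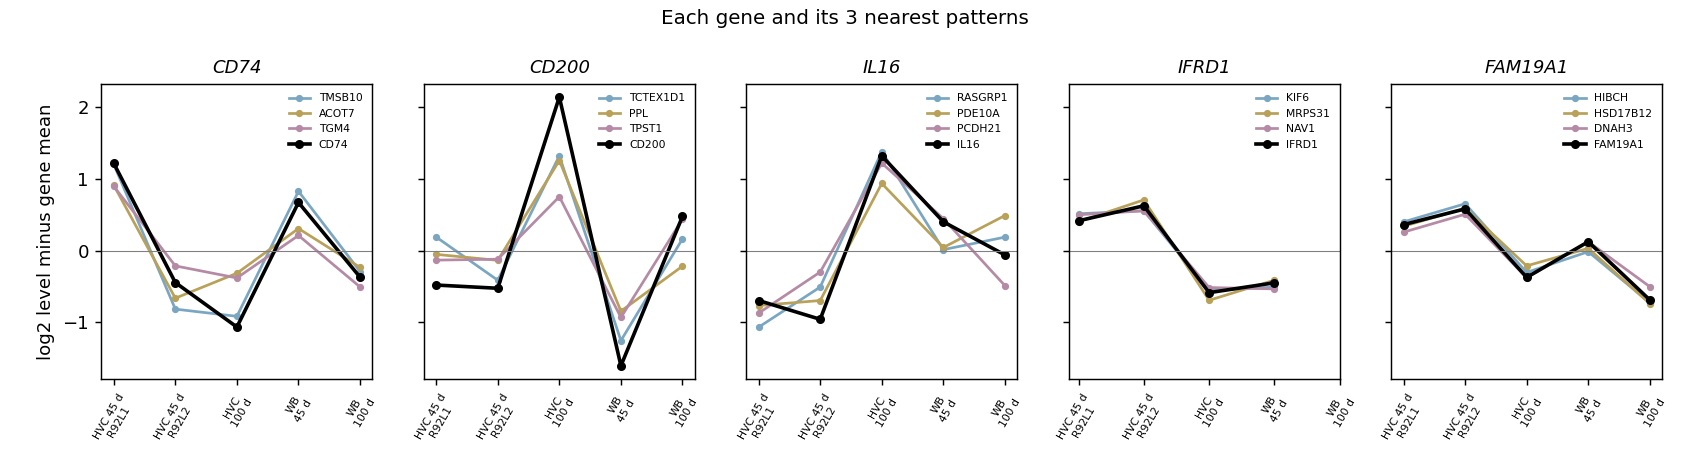
Log2 level minus the gene's mean over its libraries (y axis) in the 5 libraries (x axis) for each gene (black) and its 3 nearest transcripts (colours). *CD74* and *TMSB10* both drop from R92L1 to R92L2, *IL16* and *RASGRP1* both peak in adult HVC, and *IFRD1* is drawn over 4 libraries.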

How the data were processed

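The authors mapped reads to taeGut1 with Eland and tested pairs of groups with edgeR. The deposited tables hold raw read counts, the authors' log2 fold changes and the authors' p-values and adjusted p-values for 1800 transcripts each. The authors' columns served only to recover relative library sizes (common dispersion 0.02853) and the number of transcripts tested, and none of their values is printed. Sizes taken across tables, free of those columns, were an alternative. Counts were joined by transcript and fitted with edgeR 4.0.16 (glmQLFit, glmQLFTest, R 4.3.3) after filterByExpr. Only the juvenile HVC pair repeats a group, so 1 residual degree of freedom carries the spread. For the tissues at 100 d the fitted trend alone set the spread (infinite prior degrees of freedom). Benjamini-Hochberg adjusted p-values used the number of transcripts tested, and calls were made under 0.1. Standard errors are the log2 difference divided by the square root of F. Ratios of levels between groups used the summed reads of a group divided by its summed relative sizes. Intervals (95%, exact binomial) cover counting error only. Patterns used log2 levels with a pseudocount of 0.5. Alternatives were library size, TMM, relative log expression and across-table sizes, DESeq2 1.42.0, limma 3.58.1 with voom, no filter, and leaving out each juvenile HVC library.

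The genes and lists were chosen with earlier results of these data known. Named genes are the 5 genes, 3 nearest transcripts for each, and from each list those that passed (at most 4) and the 2 others with the most reads. Marker genes beyond this were named after their values were seen. RT-qPCR values were not used here. Some list members are not reported here.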

Additional observations from a re-analysis of the deposited data

Results flagged for a closer look

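The age difference of *IL16* had a positive value in HVC and a negative one in WB. Adult HVC lay 2.05 and 2.32 log2 units above R92L1 and R92L2, values that chose the gene. Adult WB lay at -0.47 against juvenile WB, with a counting interval of the ratio that includes no difference. The HVC value minus the WB value was 2.64 (SE 0.83). It was picked out because both HVC values had the opposite sign to the WB value. The HVC values share the 1 adult HVC library, the WB value rests on 1 library per age, and the difference was not tested. The WB counts of *IL16* were at hand only because the tissue comparisons at both ages listed it for small p-values.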

How the results depend on the processing

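Only the juvenile HVC pair gave a spread, and WB and adult HVC are single libraries. Most of the 441 single values under other scalings, tests and no filter belonged to results that were not calls, so they had no call to lose. The calls for *ALDH1A2*, *CRHBP* and *NTS* were all kept, so every lost call fell on the other calls. Of the 441 values, 387 kept their direction and side of the threshold, 49 lost a call, 1 gained one and 4 changed sign. These sign changes were *CD74* between HVC and WB at 45 d (0.26 with library size, 0.23 with TMM, 0.48 with relative log expression) and *KCND2* between ages in WB (-0.0087 with library size). For the ages in WB, the 2 calls became 0 with library size, relative log expression, across-table sizes, DESeq2 and limma-voom, and 4 with TMM and with no filter. For the ages in HVC, the 0 calls became 6 with TMM, 2 with DESeq2 and 10 with no filter. For HVC against WB at 45 d, the 688 calls became 182 with library size, 232 with TMM, 277 with across-table sizes, 121 with DESeq2 and 341 with limma-voom. At 100 d, the 337 calls became 199, 75, 171, 35 and 203 with library size, TMM, relative log expression, DESeq2 and limma-voom. With library size the median of all transcripts fitted between ages in WB moved by -0.11. The cause was not tested. The *IFRD1* call at 45 d was lost with library size (adjusted p = 0.120), TMM (0.104), across-table sizes (0.192), DESeq2 (0.658) and limma-voom (0.128). Leaving out a juvenile HVC library left no residual degree of freedom, so it gave values with no test. The values for the ages in WB and for the tissues at 100 d compare groups without a juvenile HVC library. Their sign could therefore not change, although they are counted among the 63 values. Without R92L1, 0 of 63 values changed sign. Without R92L2, 5 of 63 did: *CD74* between HVC and WB at 45 d (0.55), and between ages in HVC *C7* (0.37), *NEFL* (0.13), *NTS* (0.09) and *MBP* (0.05), none of them called. No paired analysis was possible because only the juvenile HVC group has more than 1 library. With a minimum of 50 reads, 10 of the 15 nearest transcripts were kept. This setting only removed candidates, so it dropped the nearest transcripts with fewer reads and could drop no others. *TMSB10*, the nearest to *CD74*, was among those dropped.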
